A study of Mus musculus with 18 samples.

Results

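The claudin genes described here are 10 rows of the count table, taken by gene symbol (Cldn1, Cldn2, Cldn3, Cldn4, Cldn7, Cldn8, Cldn12, Cldn15, Cldn18 and Cldn23) from 55335 genes in all. All 10 were among the 21349 genes that passed the filter on low counts. They were followed by RNA-Seq of small intestinal crypts, the epithelial pockets that hold stem, progenitor and Paneth cells. KO mice carried Prmt1 fl/fl with Vil-CreERT2, a Cre recombinase that the villin promoter drives in the intestinal epithelium and that tamoxifen activates. WT mice were Prmt1 fl/fl littermates without Cre, so that both genotypes carried the floxed alleles and both received tamoxifen. Mice of both sexes, aged 8 to 12 weeks, received 2 mg of tamoxifen at each injection. Days are counted from the first injection, and 2 injections preceded the day 2 collection and 5 those of days 7 and 14. Each of the 6 groups of genotype and day held 3 libraries, 1 per mouse. Prmt1, which encodes the arginine methyltransferase that was deleted, was measured at 13.1 to 17.4 CPM (counts scaled to a common library total) in the 9 KO libraries and at 20.2 to 30.6 CPM in the 9 WT libraries. Its mean in KO was 54.1%, 66.4% and 60.9% of the WT mean at days 2, 7 and 14, so that part of the transcript remained in every KO group.

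Claudins are membrane proteins with 4 transmembrane stretches that form the strands of the tight junction, the seal between neighbouring epithelial cells. Pore-forming claudins (Cldn2 and Cldn15 among the members) leave channels through which small cations and water pass between cells, and sealing claudins (Cldn1, Cldn3, Cldn4, Cldn8 and Cldn18) tighten the barrier. The part played by Cldn7, Cldn12 and Cldn23 is less settled or depends on the tissue, and these 3 genes were kept apart. In the small intestine Cldn2 is known from crypts and Cldn15 from crypts and villi, and both serve the sodium supply of the lumen on which nutrient uptake depends.

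Most of the claudin RNA in these crypts came from a few genes. To compare genes with each other the counts were divided by exon length and scaled to a common sum per library (TPM). Over the 9 WT libraries the mean level was 209 ± 72.9 TPM for Cldn7, 190 ± 60.9 TPM for Cldn3, 166 ± 63.6 TPM for Cldn15 and 41.0 ± 11.5 TPM for Cldn2 (SD, n = 9). Cldn3, Cldn7, Cldn15 and Cldn2 together held 85.3% to 92.9% of the summed claudin TPM of a library. Cldn4 followed at 23.3 ± 10.5 TPM, ahead of Cldn23 at 14.6 ± 4.59 TPM and Cldn12 at 13 ± 3.72 TPM. Cldn8 stood at 1.21 ± 0.433 TPM, and Cldn18 (0.109 ± 0.185 TPM) and Cldn1 (0.103 ± 0.116 TPM) were near 0.

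In that order, the WT libraries of neighbouring genes did not overlap only between Cldn15 and Cldn2, between Cldn12 and Cldn8 and between Cldn8 and Cldn18. Cldn7, Cldn3 and Cldn15 overlapped in their ranges, as did Cldn2, Cldn4, Cldn23 and Cldn12 from each to the next. Within single libraries most of this order was steadier. Cldn7 exceeded Cldn3 in 8 of the 9 WT libraries, and Cldn3 exceeded Cldn15 in 7. Cldn2 exceeded Cldn4, and Cldn4 exceeded Cldn23, in all 9, and Cldn23 exceeded Cldn12 in 8. Cldn18 exceeded Cldn1 in only 2. Both pore-forming genes and the sealing gene Cldn3 thus stood among the genes with the highest levels, whereas 3 of the 5 sealing genes were the lowest of the 10. The table holds 24 further genes with a claudin symbol, of which 11 had no count in any library and none reached a mean of 1 CPM. The 10 members held 99.9% of all claudin counts.

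**Figure D1:**
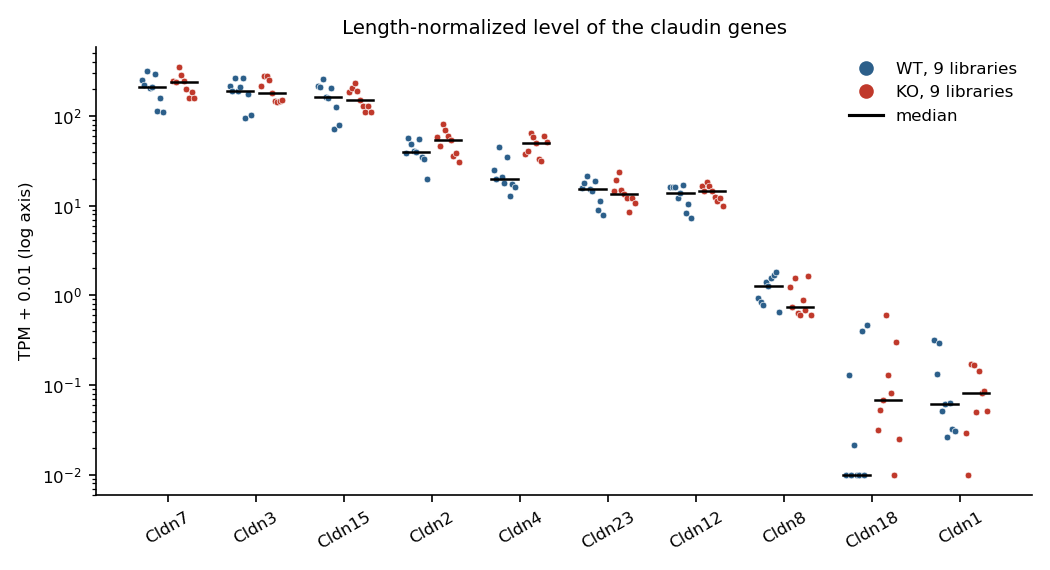
Level of each claudin gene in TPM plus 0.01 on a log axis, with 1 point per library (9 WT in blue, 9 KO in red) and a black line at the median. Cldn7, Cldn3 and Cldn15 lie together at the top, and Cldn18 and Cldn1 lie near the bottom of the axis. Heights are read between genes and not between WT and KO, since the summed claudin TPM of a library ran from 345 to 1053.

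The members lie on 6 chromosomes of mm10, with 4 of them on chromosome 5. Cldn4 (chr5:134945119-134946934, minus strand) and Cldn3 (chr5:134986214-134987472, plus strand) are neighbours there with 39279 bases between them, and each has a single exonic block, as have Cldn8 and Cldn23. A gene with a single exonic block has no intron in the annotation, so spliced and unspliced RNA cannot be separated in its counts. The annotation puts 40 bases of Cldn3, 3.18% of its exonic length, under an exon of Wbscr25 on the opposite strand. Fragments were counted without strand, so those bases cannot be assigned, and Wbscr25 had a mean of 21.6 CPM against 185 CPM for Cldn3.

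Because Cldn4 was called in KO crypts and its neighbour Cldn3 was not, the 250 bases upstream of their start sites are shown, with those of Cldn2, a pore-forming member. They are RefSeq sequences of GRCm38.p6, which held 8 of the 10 members (not Cldn8 and Cldn23). Capitals mark the letters of 4 short motifs, each searched on both strands. They are the core of the box bound by the general initiation factor, TATAAA. The site of Sp factors was searched as GGGCGG. For AP-1 the letters were TGANTCA, and for Cdx factors of the gut TTTATG. The windows are chr5:134946935-134947184 on the minus strand for Cldn4, chr5:134985964-134986213 on the plus strand for Cldn3 and chrX:139800558-139800807 on the plus strand for Cldn2.
Cldn4: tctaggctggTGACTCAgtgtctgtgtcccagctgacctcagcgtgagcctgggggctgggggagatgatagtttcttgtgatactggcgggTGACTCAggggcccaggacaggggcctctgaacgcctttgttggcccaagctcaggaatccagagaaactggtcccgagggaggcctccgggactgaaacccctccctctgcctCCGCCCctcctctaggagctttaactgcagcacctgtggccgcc
Cldn3: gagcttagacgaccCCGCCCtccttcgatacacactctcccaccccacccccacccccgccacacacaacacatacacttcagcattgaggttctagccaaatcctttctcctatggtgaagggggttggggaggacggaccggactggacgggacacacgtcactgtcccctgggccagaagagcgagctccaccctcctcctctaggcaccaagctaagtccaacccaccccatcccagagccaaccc
Cldn2: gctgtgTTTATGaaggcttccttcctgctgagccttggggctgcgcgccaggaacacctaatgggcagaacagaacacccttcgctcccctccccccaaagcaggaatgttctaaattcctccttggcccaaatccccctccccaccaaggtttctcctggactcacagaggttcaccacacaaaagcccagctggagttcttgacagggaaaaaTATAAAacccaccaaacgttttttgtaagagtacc

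Cldn4 holds TGANTCA at 2 places, and Cldn3 holds none. Among 32851 RefSeq windows of this length, 6.75% hold TGANTCA. Cldn15, which was not called between KO and WT on any day, holds it once, and the other members matched do not. Each of Cldn4 and Cldn3 holds GGGCGG once, as do 32.7% of all windows at least once. Cldn2 holds TATAAA and TTTATG once each, which 12.4% and 10.8% of all windows hold. A match of letters is a description of the sequence and not evidence that a factor binds there.

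The first question of the design was which claudins differed between KO and WT crypts on each day. At day 2, 0 of the 10 members passed the quasi-likelihood test of edgeR at an adjusted p of 0.05 (Benjamini-Hochberg, over the 21349 genes), against 0.0328% of all genes tested. DESeq2's Wald test also called 0. At an unadjusted p under 0.05, 1 member (Cldn1) was counted, against 3.33% of all genes. No member had its 3 KO libraries all on one side of its 3 WT libraries, compared with 8.16% of all genes. The median log2 fold change was 0.11 over the members and -0.00 over all genes tested.

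At day 7, where 17.3% of all genes tested were called, again 0 of the 10 members passed, although 4 of them (Cldn2, Cldn4, Cldn8 and Cldn18) had an unadjusted p under 0.05, against 29.9% of all genes. DESeq2's Wald test called 1, Cldn4. The groups did not overlap for 5 members, with Cldn2, Cldn4 and Cldn18 higher and Cldn8 and Cldn23 lower in KO, against 33.6% of all genes (15.9% higher and 17.7% lower). With 10 members, shares so close to those of the whole table are not a result about the claudins. The median log2 fold change was 0.05 over the members and 0.02 over all genes.

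At day 14, 1 of the 10 members passed, Cldn4, which was higher in KO, against 7.92% of all genes tested and 3.23% called higher. Cldn4 and Cldn8 had an unadjusted p under 0.05, against 21.6% of all genes. The groups of Cldn4 alone did not overlap, against 26.5% of all genes, of which 12.4% were higher in KO. The median log2 fold change was -0.06 over the members and 0.00 over all genes. Libraries of bulk crypts do not tell fewer cells of a type from less RNA per cell, which holds for each difference below.

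**Figure D2:**
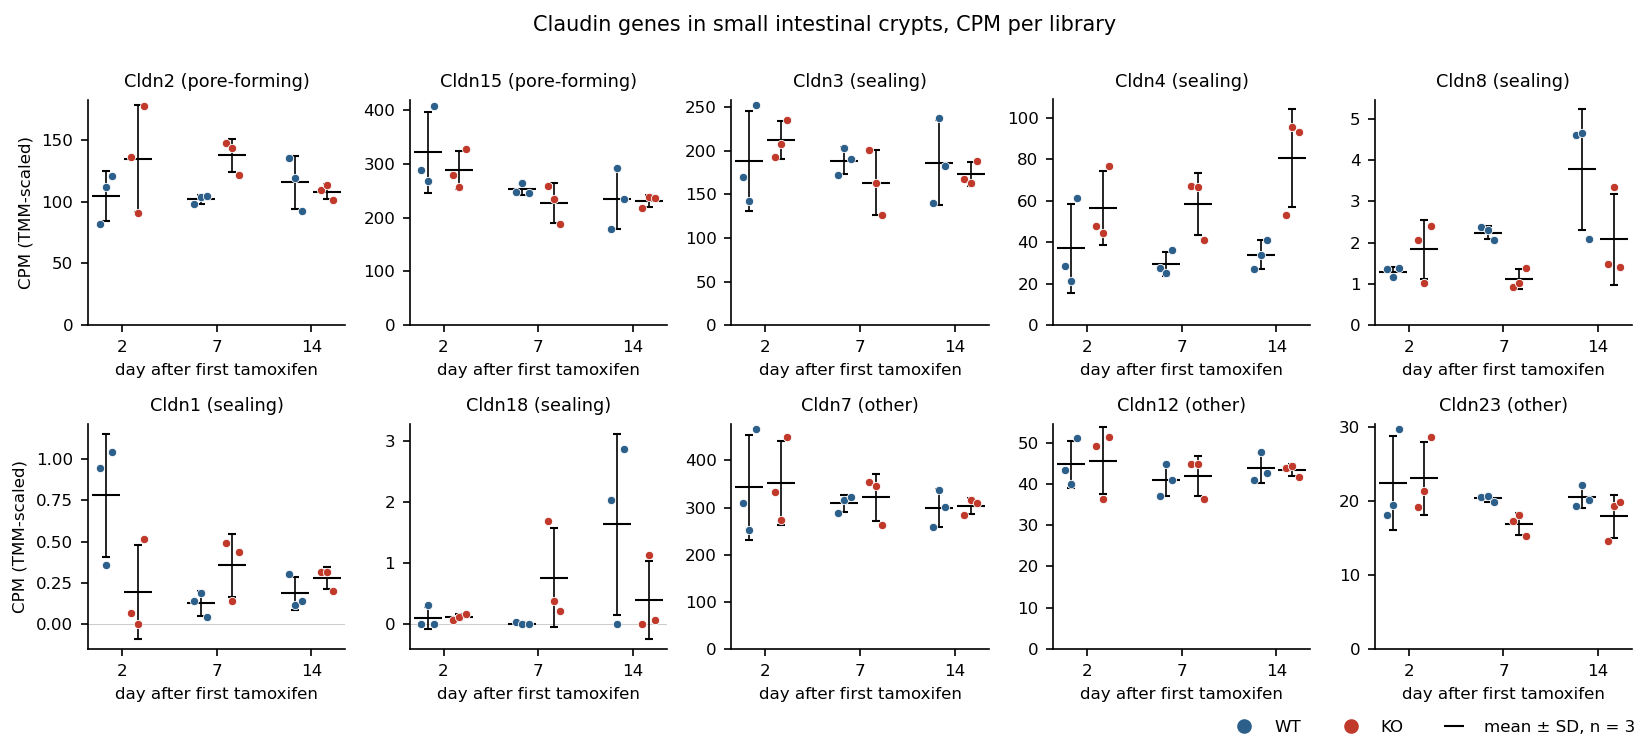
CPM of the 10 claudin genes (vertical axes, linear) by day after the first tamoxifen injection, with 1 point per library (WT blue on the left and KO red on the right of each day) and bars at the mean ± SD of 3 libraries. At day 14 the KO points of Cldn4 (53.2 to 95.5 CPM) lie above its WT points (27.0 to 40.9 CPM), whereas the groups of the other genes overlap there.

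Cldn4, a sealing claudin known to restrict the passage of cations, was the member with the clearest difference. At day 14 it stood at 53.2, 95.5 and 93.2 CPM in the 3 KO libraries and at 27.0, 34.0 and 40.9 CPM in the 3 WT libraries. The lowest KO library lay above the highest WT library, and KO averaged 80.7 ± 23.8 CPM against a WT mean of 34.0 ± 6.91 CPM (SD, n = 3). The log2 fold change was 1.24 ± 0.36 (SE, 95% interval 0.47 to 2.02, adjusted p = 0.0490 by edgeR's quasi-likelihood test), a 2.37-fold higher level.

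The same direction was present on the earlier days. At day 7 Cldn4 stood at 67.3, 66.7 and 40.9 CPM in KO and at 27.5, 25 and 36.0 CPM in WT, without overlap. The log2 fold change of 0.98 ± 0.36 did not pass the test (edgeR adjusted p = 0.0772), while DESeq2's Wald test gave an adjusted p of 0.0212. At day 2 the KO libraries held 47.7, 44.4 and 76.9 CPM and the WT libraries 28.5, 21.1 and 61.5 CPM. Both groups had their highest value in replicate 3, and they overlapped, with a log2 fold change of 0.60 ± 0.36 (edgeR adjusted p = 0.999). The KO effect at day 14 exceeded that at day 2 by 0.64 on the log2 scale and that at day 7 by 0.26, and neither difference passed edgeR's test (adjusted p = 0.706 and 0.999).

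As a share of the summed claudin TPM of its library, Cldn4 rested at 2.67% to 4.66% in the 9 WT libraries. In KO it held 4.81% to 6.08% at day 2, 5.63% to 7.08% at day 7 and 6.34% to 10.3% at day 14. These shares come from the same counts as the test above and are given as a description.

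The call at day 14 sat at the threshold. It was kept when KO replicate 1 was left out and lost when any of the other 5 libraries of the comparison was left out, with an adjusted p from 0.0619 to 0.144 and a log2 fold change from 1.11 to 1.48 over the 6 fits (edgeR). It was also lost without a filter on low counts (adjusted p = 0.122) and with the 20 sex-dependent genes that the study removed kept in (0.050003). At day 7 Cldn4 passed without KO replicate 3 (adjusted p = 0.0427) and did not pass without any of the other 5 libraries (0.0915 to 0.209), with a log2 fold change from 0.87 to 1.21 over the 6 fits.

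Marker genes of other cell types moved between the same groups. The 8 enteroendocrine markers were all called higher in KO at days 7 and 14, with a summed level at day 7 of 650 to 813 CPM in KO against 287 to 311 CPM in WT. At day 14 the sums were 768 to 921 CPM against 247 to 326 CPM. The 14 villus enterocyte markers, of which 2 were called higher and 1 lower at day 7, summed there to 20674 to 31722 CPM in KO libraries against 14968 to 18471 CPM for WT. At day 14 their ranges were 16372 to 31027 CPM and 7994 to 19794 CPM, and the KO library with the lowest sum was also the one with the lowest Cldn4. All 8 Paneth cell markers and 8 of 10 stem cell markers were called lower in KO at day 7 (sums of 1521 to 4204 CPM against 9493 to 16014 CPM, and of 542 to 1236 CPM against 1891 to 2534 CPM). At day 14, 1 gene of each of these lists was called lower, and the sums again did not overlap, with 5986 to 7892 CPM in KO against 9826 to 22058 CPM for the Paneth list and 1724 to 2031 CPM against 2344 to 2530 CPM for the stem cell list. Of 7 goblet cell markers 2 were called lower at day 7 and 1 at day 14. Their sums at day 14 were 10611 to 12550 CPM in KO against 12785 to 13098 CPM in WT. The median log2 fold change of this list was positive nonetheless, at 0.17 at day 7 and 0.13 at day 14. Of 5 tuft cell markers tested 1 was called lower at day 7 and none at day 14, where the sums overlapped. Of 13 immune and 9 stromal markers none was called on any day, by edgeR's adjusted p. No marker of these 8 lists was at 0 in all libraries of a group. The part of these cell types in the Cldn4 difference was not tested.

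Cldn3, the neighbour of Cldn4 and a sealing claudin with a much higher level, was not called on any day. At day 14 it stood at 167, 163 and 189 CPM in KO and at 140, 237 and 182 CPM in WT, and the KO libraries lay within the WT range. Its log2 fold changes were 0.17, -0.21 and -0.11 at days 2, 7 and 14, each with an SE of 0.21. Within each library, log2 CPM of Cldn4 minus that of Cldn3 lay between -1.65 and -0.77 in KO at day 14, and between -2.80 and -2.16 in WT. At day 7 the bounds were -1.62 and -1.29 in KO against -3.02 and -2.40 in WT, and at day 2 the groups overlapped. The pair was chosen after its values were seen, and no test is given.

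**Figure D3:**
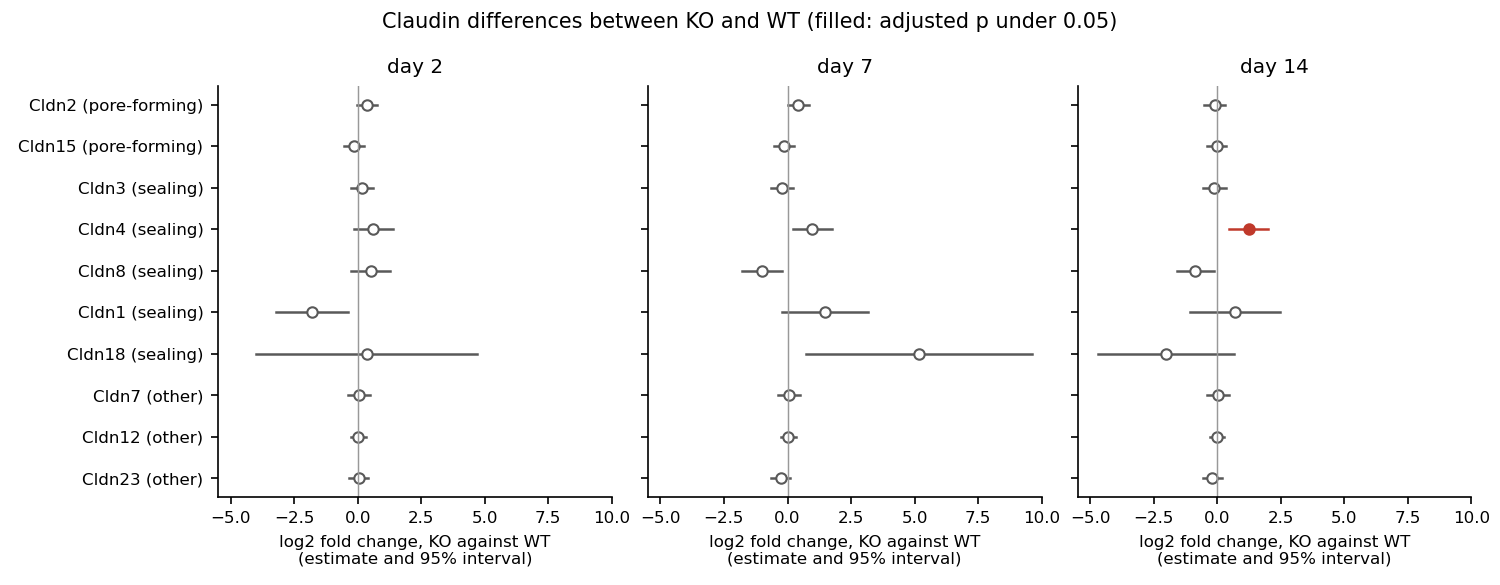
Log2 fold change between KO and WT (horizontal axes) for the 10 claudin genes at days 2, 7 and 14, with the 95% interval of edgeR's fit as a line. The filled point is Cldn4 at day 14 (1.24), all open points did not pass the adjusted threshold of 0.05, and the widest intervals belong to Cldn18 and Cldn1.

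Cldn8, a sealing claudin best known from the colon and kidney tubule, was low in these crypts, with 18 to 118 counts per library. At day 7 it stood at 0.934, 1.02 and 1.4 CPM in KO and at 2.37, 2.30 and 2.06 CPM in WT. Each KO library was lower than each WT library, with a log2 fold change of -1.01 ± 0.37 that did not pass edgeR's test (adjusted p = 0.0678). In the model of only the 2 groups compared the adjusted p was 0.0317.

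At day 14 the KO libraries held 1.48, 3.34 and 1.42 CPM of Cldn8 and the WT libraries 4.61, 4.66 and 2.09 CPM. KO replicate 2 lay above WT replicate 3, so that the groups overlapped, while within each of the 3 same-numbered pairs the KO library was the lower. The log2 fold change was -0.86 ± 0.36 (edgeR adjusted p = 0.156, or 0.190 with the replicate block and 0.0666 with the block within day). Over the 6 fits that leave out 1 library it ran from -1.36 to -0.65. It passed without KO replicate 2 (adjusted p = 0.0395) and did not pass without any of the other 5 libraries, with an adjusted p from 0.0580 to 0.416.

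Over time in WT mice Cldn8 was the single member that passed a test. It rose from 1.35, 1.16 and 1.37 CPM at day 2 to 4.61, 4.66 and 2.09 CPM at day 14, without overlap, as was the case in that direction for 12.2% of all genes. The log2 fold change was 1.53 ± 0.36 (edgeR adjusted p = 0.0408), against 1.61% of all genes called in that comparison and 0.735% called higher. The call was kept without WT day 14 replicate 3 (log2 fold change 1.85) and lost without any of the other 5 libraries, with an adjusted p from 0.0606 to 0.147. It was also lost in the model of only the groups compared (adjusted p = 0.0829) and with the replicate block (0.0611). Without the 4 libraries richest in gastric marker RNA (given with Cldn18), which leaves 1 WT library at day 14, it was also lost (log2 fold change 1.87, adjusted p = 0.0738). At an unadjusted p under 0.05, 4 members were counted there (Cldn1, Cldn8, Cldn15 and Cldn18), against 20% of all genes. Of the other WT comparisons, day 7 against day 2 called 0 members (0.553% of all genes) and day 14 against day 7 called 0 (0.0796% of all genes). At an unadjusted p under 0.05 each counted 2 members, against 22.4% and 5.18% of all genes, and DESeq2's Wald test called 0 in both. The comparisons of days 7 and 14 with day 2 share the WT day 2 libraries.

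Markers of the colon were read beside the Cldn8 values. Aqp8, a water channel of the colon, stood at 0.334 to 0.574 CPM in WT at day 2 and at 1.51 to 11.3 CPM in WT at day 14, without overlap, and KO libraries of day 14 held 1.63 to 5.93 CPM. It was not called between KO and WT on any day. Car1, a carbonic anhydrase of the colon, was at 0 in all WT libraries of days 2 and 14 and was called higher in KO at days 7 and 14, at 0.222 to 0.873 CPM and at 0.378 to 4.74 CPM. Hoxb13 was at or under 0.0395 CPM in the WT libraries. The part of the gut region in the Cldn8 values was not tested.

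Cldn2, which forms a channel for sodium and water in leaky epithelia, had a higher mean in KO at day 7 that did not pass the test. It stood at 147, 143 and 122 CPM in KO and at 97.8, 103 and 104 CPM in WT. The groups did not overlap, and the log2 fold change was 0.43 ± 0.19 (edgeR adjusted p = 0.141). At day 2 the KO libraries of Cldn2 held 136, 91.2 and 177 CPM and the WT libraries 81.9, 112 and 121 CPM, so that the groups overlapped, with 1 KO library below 2 of the WT libraries. At day 14 the levels were 110, 113 and 101 CPM in KO and 135, 119 and 92.7 CPM in WT. The log2 fold change there was -0.10 ± 0.19. Between days, the KO effect on Cldn2 differed by 0.07 for day 7 against day 2 (95% interval -0.51 to 0.64) and by -0.53 for day 14 against day 7 (-1.10 to 0.05), and neither passed edgeR's test.

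Cldn15, the other pore-forming member, had the higher level of the pair and was not called on any day. Its KO libraries held 259, 235 and 187 CPM at day 7 against 248, 264 and 245 CPM in WT, and 218, 238 and 237 CPM at day 14 against 178, 292 and 234 CPM in WT. The log2 fold changes were -0.16, -0.15 and -0.03 at days 2, 7 and 14 (SE 0.19 each). The 95% interval at day 14 ran from -0.42 to 0.36.

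Cldn7, Cldn12 and Cldn23, the members with no settled class, were likewise not called. Cldn7, which is known from the basolateral membrane of the gut epithelium, had log2 fold changes of 0.04, 0.06 and 0.02 at the 3 days. Cldn12 differed by -0.02 to 0.03 and was the member with the smallest spread, with an SD within groups of 0.17 on the log2 CPM scale against a median of 0.28 over all genes tested. Cldn23 stood at 17.3, 18.1 and 15.2 CPM in KO at day 7 and at 20.5, 20.6 and 19.8 CPM in WT, all KO libraries being lower, at a log2 fold change of -0.27 ± 0.18 (edgeR adjusted p = 0.345). Over Cldn3, Cldn7, Cldn12, Cldn15 and Cldn23 and the 3 days, the 15 log2 fold changes lay between -0.27 and 0.17 and their 95% intervals between -0.65 and 0.61. Differences of up to that size are within these intervals.

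Cldn1 and Cldn18 were counted too rarely for firm comparisons. Cldn1, a sealing claudin of skin and many epithelia, had 23, 8 and 28 counts in WT at day 2 and 1, 0 and 12 counts in KO. Every other group held between 1 and 11 counts per library. At day 2 its log2 fold change was -1.80 ± 0.68 (edgeR adjusted p = 0.999), and from day 2 to day 7 in WT it was -2.64 ± 0.74 (adjusted p = 0.0704). The latter passed when low counts were not filtered (adjusted p = 0.00457) and when WT day 2 replicate 2 was left out (adjusted p = 0.0482).

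Cldn18, whose isoforms belong to the stomach and lung, had 10 or fewer counts in 13 of the 18 libraries, in which it reached at most 7. The other 5 libraries were KO day 7 replicates 1 and 2 (38 and 11 counts), KO day 14 replicate 2 (18 counts) and WT day 14 replicates 1 and 3 (27 and 62 counts). High and low libraries occurred within 1 group, as in WT at day 14 with 27, 0 and 62 counts. The fitted log2 fold changes of Cldn18 between KO and WT had SEs of 1.25 to 2.09 and are not read as sizes.

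The 5 libraries with more Cldn18 were also libraries with gastric marker RNA. Summed over 9 gastric markers, they held 19.5 to 142 CPM, and the other 13 libraries held 3.12 to 20.9 CPM. The 4 libraries with the largest gastric sums (41.1 to 142 CPM) were the 4 with the most Cldn18. Of the 7 gastric markers that could be tested, 2 (Gkn3 and Pgc) were called lower in KO at day 14 and none was called at days 2 and 7. Gkn1 was at 0 in all WT libraries of day 7 and Atp4b in all KO libraries of day 14. Whether stomach tissue contributed RNA to these crypt preparations was not tested.

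**Figure D4:**
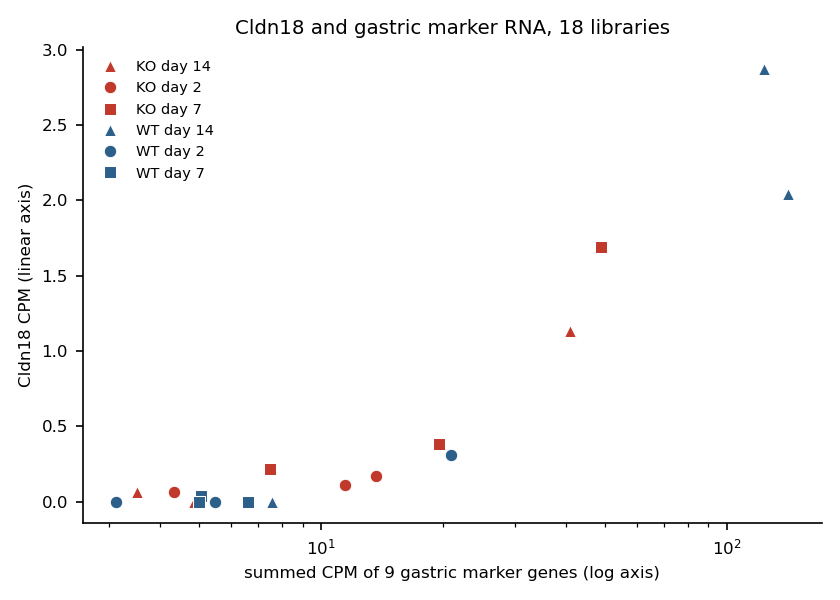
Cldn18 level in CPM (vertical axis, linear) against the summed CPM of 9 gastric marker genes (horizontal axis, log scale) in the 18 libraries, by genotype (colour) and day (shape). The 4 libraries with gastric sums from 41.1 to 142 CPM have the most Cldn18 (1.14 to 2.87 CPM), and 2 of them are WT at day 14.

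Without those 4 libraries the comparisons kept their directions for Cldn4 and Cldn8. At day 7 the log2 fold change of Cldn4 was 0.89 and at day 14 it was 1.10, where the adjusted p rose to 0.390. The latter comparison then rested on 1 WT library, which is assumed to vary like the other groups. Cldn8 at day 14 moved to -1.68 and passed the test (edgeR adjusted p = 0.0293), so that the count of called members stayed at 1 with another gene.

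The second question was whether pore-forming and sealing claudins shifted against each other. As a score per library, the mean log2 CPM of the 2 pore-forming genes minus that of the 5 sealing genes averaged 5.15 ± 0.30 in KO libraries of day 7 against 5.69 ± 0.11 in those of WT (SD, n = 3). The KO libraries (4.84, 5.43 and 5.18) all lay below the WT libraries (5.58, 5.69 and 5.80). At day 2 the KO mean was 5.62 ± 0.25 and the WT mean 5.49 ± 0.10, and at day 14 they were 5.03 ± 0.54 and 4.88 ± 0.64, with overlap on both days. Since the members were chosen with results known, no test is given for the score.

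The difference of -0.54 at day 7 depended on how the genes were weighted. The score gives Cldn1 and Cldn18, with at most 38 counts there, the same weight as Cldn3. With Cldn3 and Cldn4 alone as the sealing genes the difference was -0.23, and as the log2 ratio of summed TPM it was 0.04, on the other side of 0. Measured by summed TPM, the ratio of pore-forming to sealing claudins was 0.925 in KO and 0.897 in WT at day 7. It was 0.878 and 1.10 at day 2 and 0.777 and 0.873 at day 14. Against Cldn3 and Cldn4 alone, KO minus WT of the score was -0.37, -0.23 and -0.61 at the 3 days. The log2 fold changes of the sealing members at day 14 had both signs, with -0.86 for Cldn8 and 1.24 for Cldn4.

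Within the pore-forming pair, log2 CPM of Cldn2 minus that of Cldn15 lay between -0.81 and -0.62 in KO at day 7, and between -1.35 and -1.23 in WT. The groups overlapped at days 2 and 14, where 1 library each of KO at day 2 (replicate 2, -1.49), WT at day 2 (replicate 2, -1.26) and WT at day 14 (replicate 1, -0.40) stood apart from the others of its group.

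**Figure D5:**
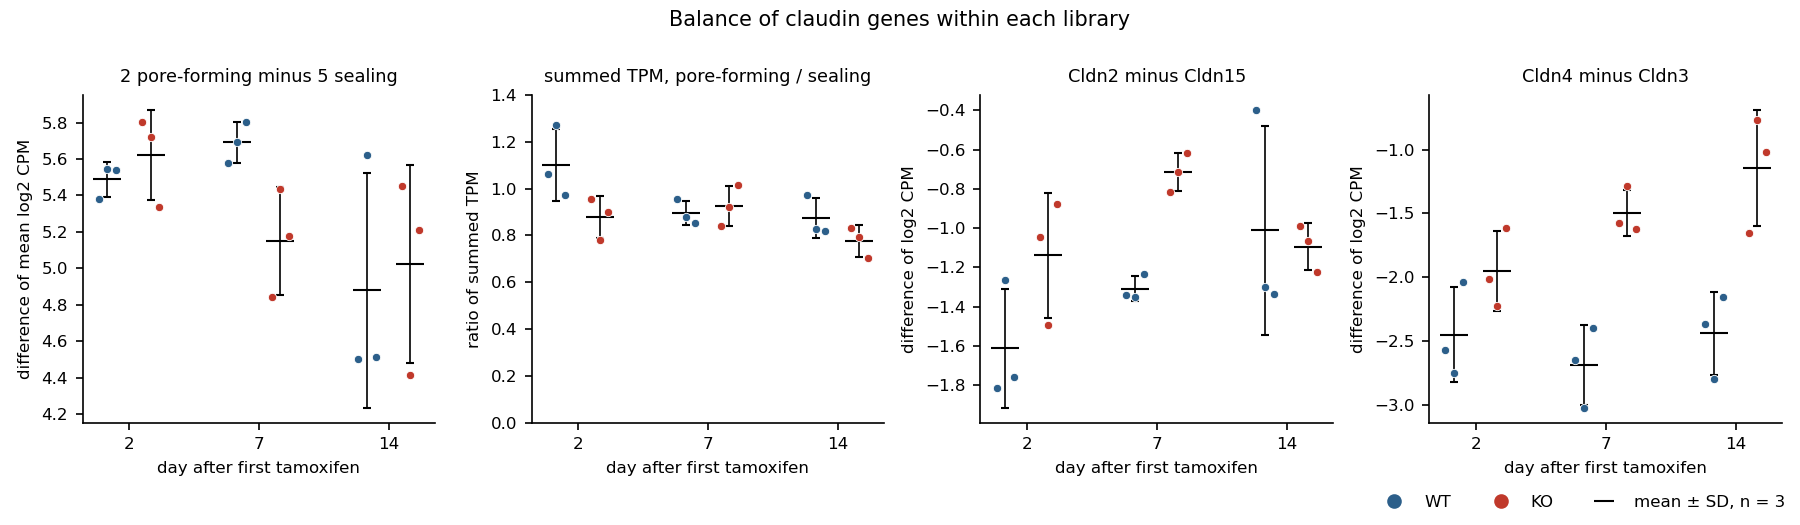
Balance of claudin genes within each library by day (WT blue on the left, KO red on the right, bars at the mean ± SD of 3 libraries). From left to right are the pore-forming minus sealing score in log2 CPM, the ratio of summed TPM, Cldn2 minus Cldn15 and Cldn4 minus Cldn3 in log2 CPM. At day 7 the KO points do not overlap those of WT in the panels of log2 CPM, whereas the TPM ratios (means 0.925 in KO and 0.897 in WT) do.

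The KO effect was also compared between days. From day 2 to day 7 it changed for 0 of the 10 members, against 4.37% of all genes, and from day 2 to day 14 for 0, against 1.04%. Between days 7 and 14 no gene of the table was called (0% of all genes). At an unadjusted p under 0.05 there were 2, 2 and 1 members in these comparisons, against 18.1%, 11.9% and 4.46% of all genes. Those of day 7 against day 2 were Cldn8 (log2 difference -1.52 ± 0.52, edgeR adjusted p = 0.115) and Cldn1 (3.27 ± 1.06, adjusted p = 0.0901). DESeq2's Wald test called 0 in each comparison. The log2 fold change of Cldn8 was 0.51 at day 2, against -1.01 and -0.86 at the later days, and its change between days stayed short of the threshold. Without a filter on low counts the day 7 against day 2 differences of Cldn8 and Cldn1 both passed (adjusted p = 0.0341 and 0.0139).

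Gprc5a and Tubb2a had the profiles over the 18 libraries with the smallest difference from that of Cldn4. The measure was the root mean square difference of log2 CPM after centring each gene on its own mean, and it was 0.25 for Gprc5a and 0.32 for Tubb2a, against a median of 0.73 over all genes tested. Gprc5a, an orphan receptor of epithelia, averaged 23.4 CPM in KO libraries of day 14 against 9.52 CPM for WT, which did not pass edgeR's test (adjusted p = 0.136). Tubb2a, a beta-tubulin, averaged 13.1 CPM against 6.49 CPM there and was likewise not called at day 7 or 14 (adjusted p = 0.135 and 0.0908).

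Around the claudins, 41 genes of the tight junction were listed (occludin and its relatives, junctional adhesion molecules, scaffolds, polarity proteins and signalling partners), and 40 could be tested. At day 2 none was called. At day 7, 3 were higher and 2 lower in KO, which is 12.5% of the 40 against 17.3% of all genes, and at day 14 there were 1 higher and 2 lower, 7.50% against 7.92%. The median log2 fold change of the list was 0.05 at day 7 and 0.07 at day 14.

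Among the adhesion molecules of the list, Clmp, a member of the CAR family, was higher in KO on both days, at 3.22 ± 0.275 CPM in KO against 1.46 ± 0.251 CPM for WT at day 7 (log2 fold change 1.13). At day 14 the means were 2.75 ± 0.391 and 1.12 ± 0.654 CPM (log2 fold change 1.23). Igsf5, which encodes a JAM-like protein of the intestine and kidney, rose from 53.8 CPM in WT to 68.1 CPM in KO at day 7 (log2 fold change 0.34). Marveld2 (tricellulin), which seals the corners where 3 cells meet, fell to 19.7 to 23 CPM in KO from 28.9 to 33.9 CPM in WT at day 7 (log2 fold change -0.51). Tricellulin at day 14 showed 25.6 to 28.2 CPM in KO libraries against 29.1 to 30.8 CPM for WT, without a call.

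Of the scaffold and signalling genes, Magi2 was higher in KO at day 7 from a very low level (0.491 to 0.667 CPM against 0.0639 to 0.175 CPM, log2 fold change 2.08). Amot (angiomotin), which links the junction to Hippo signalling, was lower at both days, with log2 fold changes of -0.47 and -0.48. Ybx3, the Y-box protein that binds ZO-1 at the junction, was lower at day 14 (68.0 to 76.4 CPM against 84.9 to 136 CPM, log2 fold change -0.56). All of these calls had KO and WT libraries that did not overlap, and edgeR's adjusted p ran from 0.00600 to 0.0355.

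Genes of the other junctions of the lateral membrane were tested beside them, 11 of the adherens junction and 10 of the desmosome. At day 7, 2 of the 11 were called, Nectin2 (165 ± 24.6 CPM against 117 ± 6.30 CPM, log2 fold change 0.51) and Nectin4 (0.982 ± 0.366 and 1.73 ± 0.176 CPM, log2 fold change -0.80), and none at day 14. In the desmosome list Ppl (periplakin), which ties desmosomes to keratin filaments, was higher in KO on both days, at 30.8 to 36.2 CPM against 16.2 to 19.7 CPM at day 7 and 22.9 to 26.7 CPM against 13.1 to 15.9 CPM at day 14. Pkp1 (plakophilin 1), a plaque protein, was lower on both days, with log2 fold changes of -0.72 and -0.49. The 2 lists held no call at day 2, and 4 of 21 genes at day 7 and 2 of 21 at day 14 were called, in both directions, which is near the 17.3% and 7.92% of all genes.

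Total counts per library ran from 12844642 to 31493484, and no 2 libraries held identical values. At such depth counting error is small for all members but Cldn1, Cldn8 and Cldn18, and the precision rests on how far 3 mice differed. On day 2 replicate 3 had the highest CPM of its group in both genotypes for every member except Cldn18, narrowly so for Cldn8 in WT (1.35, 1.16 and 1.37 CPM). Villus enterocyte markers were also highest in these 2 libraries (34140 CPM in KO and 47163 CPM in WT), and their part in the spread of the members was not tested.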

How the data were processed

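RNA-Seq libraries of small intestinal crypts from 3 KO and 3 WT mice per day (18 libraries) were analysed. The authors deposited 1 table of raw counts per gene, made from STAR 2.7.3 alignments to mm10 with featureCounts 1.6.4, per the file headers and the submitters' processing notes. The header names a GENCODE release other than that in the study's methods, strand was not used, and fragments over several genes were counted for each, which can add counts where genes overlap. Every value was a whole number, and 0 columns were left unused. The 20 sex-dependent genes that the study removed were left out before normalization. Sex was not a term in any model.

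Genes were filtered with filterByExpr by group, counts were normalized with TMM, and 1 model with a mean per group was fitted to all 18 libraries with edgeR 4.0.16 (quasi-likelihood, robust; limma 3.58.1, R 4.3.3). P-values were adjusted by Benjamini-Hochberg over the 21349 genes tested, with a threshold of 0.05. The SE is the absolute log2 fold change divided by the square root of F. Log2 CPM used a prior count of 2. TPM were computed from the counts and the exon lengths of the table and compared only between genes or as shares within libraries. The script was also tested on simulated data in which chosen genes were changed.

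The members and lists were chosen with earlier results of these data known, and class membership (pore-forming or sealing) follows textbook knowledge. The genes named are the 10 members, Prmt1, the junction genes called at day 7 or 14 without overlap of the groups, the 3 genes most like each member called in a comparison of KO with WT, any other claudin with a mean of at least 1 CPM, and genes that overlap a member's exons. Some genes that these rules or lists hold are not reported here. Aqp8, Car1, Hoxb13, Gkn1, Gkn3, Pgc and Atp4b were named after their values were seen. Alternatives were DESeq2 1.42.0, its size factors, no filter on low counts, the 20 genes kept, a model of only the groups compared, a block for the replicate number and each library left out. A block within each day, 4 libraries left out together and Cldn3 with Cldn4 as the sealing genes were chosen after seeing the data. The block within day fits each group at the level of replicate 1, so it is not given for WT comparisons between days.

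Same-numbered KO and WT libraries had deviations from their group means that correlated at 0.159 to 0.227 over genes at day 14, where each of the 3 pairs exceeded 0.1, against 0.0478 to 0.381 (day 2) and -0.159 to 0.206 (day 7). The replicate numbers were therefore read as pairs at day 14 only, from the data and not from the labels. WT mice were littermates of KO mice, but the labels do not tie a replicate number to a litter, and p-values measure the spread between these mice. RefSeq upstream sequences were matched by symbol with Python 3.11.15.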

Additional observations from a re-analysis of the deposited data

How the results depend on the processing

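Over the 10 claudins and 9 comparisons no log2 fold change that was called reversed, but the calls depended on the setting. At day 7, where 0 claudins were called, DESeq2's Wald test, no filter on low counts and the replicate block each called 1, a model of only the 2 groups called 3 (Cldn2, Cldn4 and Cldn8), the block within each day called 2, and leaving out single libraries gave 0 to 1. At day 14 the 1 call became 0 without the filter and with the 20 genes kept, and 0 to 1 without single libraries. The replicate block and the block within day kept the day 14 call of Cldn4 (edgeR adjusted p = 0.0244 and 0.00391). In WT, day 7 against day 2 gave 1 without the filter and 0 to 1 without single libraries. Day 14 against day 2 (1 call) gave 2 without the filter, 0 with only the groups compared and with the replicate block, and 0 to 1 without single libraries. Leaving out the 4 libraries richest in gastric marker RNA left 1 WT library at day 14, with a log2 fold change of 1.87 for Cldn8. The KO effect of day 7 minus day 2 gave 2 without the filter, 1 with the block within day and 0 to 1 without single libraries.

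For the tight junction partners the 5 calls at day 7 became 8 with DESeq2's Wald test, 2 without the 4 libraries and 2 to 6 without single libraries (2 without KO replicate 1 or WT replicate 2, 3 without WT replicate 1). Their 3 calls at day 14 became 1 with only the groups compared, 1 without the 4 libraries and 0 to 3 without single libraries (0 without KO replicate 1 or 3 or WT replicate 2, 1 without WT replicate 1). Adherens junction and desmosome genes, 4 at day 7, gave 2 with the replicate block, 2 without the 4 libraries and 2 to 4 without single libraries (2 without KO replicate 1 or any WT library). The 2 calls of day 14 gave 1 with only the groups compared, 1 without the 4 libraries and 0 to 2 without single libraries (0 without KO replicate 2 or WT replicate 1, 1 without KO replicate 1 or 3 or WT replicate 2).

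The pore-forming minus sealing difference depended on the genes and libraries used. At day 2 (0.13) it was -0.32 as a log2 ratio of summed TPM, 0.37 with Cldn2 and -0.10 with Cldn15 as the pore-forming gene, and -0.37 with Cldn3 and Cldn4 as sealing genes. At day 7 (-0.54) it was 0.0427, -0.24, -0.84 and -0.23 in that order, and -0.90 with a prior count of 0.5. At day 14 (0.15) it was -0.61 with Cldn3 and Cldn4 and -0.17 as the TPM ratio. Without single libraries it was 0.04 to 0.27 at day 2, -0.68 to -0.39 at day 7 and -0.07 to 0.52 at day 14, where it fell below 0 without KO replicate 1, WT replicate 1 or WT replicate 3. The causes were not tested. The block on replicate numbers changed no other count of called claudins than those given. The block within day, the 4 libraries and the pair Cldn3 and Cldn4 were chosen after seeing the data. Counting error weighed most on Cldn1, Cldn18 and Cldn8, with 0 to 28, 0 to 62 and 18 to 118 counts per library.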
